A study of Mus musculus with 6 samples.

Results

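Small nucleolar RNA (snoRNA) genes were followed in the stromal vascular fraction (SVF) of gonadal white adipose tissue (gWAT) from CL-treated and vehicle-treated mice. Members were chosen by symbol, and the probe set of each was selected on its mean level, the only measured value in the rule. The set itself was proposed after its fold changes had been seen. A gene was taken where the array annotation gave a probe set exactly 1 symbol and that symbol was Snora or Snord followed by a digit, and where several such probe sets named a gene, the one with the highest mean over the 6 arrays was chosen. This gave 73 of the 22180 genes tested, of which 26 are H/ACA genes (Snora) and 47 are C/D genes (Snord). A further 27 snoRNA symbols occur only on probe sets that name several genes and are not reported singly.

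SVF is what collagenase digestion frees from adipose tissue once the mature adipocytes are removed, so it holds progenitors, endothelial cells, mural cells and leukocytes. CL (CL316243), a β3-adrenergic agonist, was injected intraperitoneally into wild-type C57Bl/6 mice once a day at 1 mg/kg in 0.1 ml for 3 days, and the labels give an age of 8 weeks for both groups. The general methods of the study describe a longer CL course, and younger female mice for fractionation, and it is not settled here which of them applies to these arrays. Total RNA of 3 CL-treated and 3 vehicle-treated biological replicates was applied to Mouse Gene ST arrays of Affymetrix, and the values are log2 expression levels. The labels do not say whether a replicate is 1 mouse or a pool, so the spread between arrays is all that the tests measure. In bulk RNA of this kind, fewer cells of a type and less RNA per cell cannot be told apart.

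SnoRNAs are short nucleolar RNAs that, for the most part, are cut from the introns of host genes, where the spliced exons make a separate product. Box C/D snoRNAs bind fibrillarin, Nop56, Nop58 and Snu13 and guide 2′-O-methylation of ribosomal RNA, and box H/ACA snoRNAs bind dyskerin, Nhp2, Nop10 and Gar1 and guide pseudouridylation. A few, such as U3, U8, U13, U17 and U22, act in the cleavage or other maturation of the ribosomal RNA precursor, and both classes turn over separately from the mRNA of their host.

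Many snoRNA host genes in vertebrates start transcription inside a run of pyrimidines, a layout known as a 5′ terminal oligopyrimidine tract. The windows printed here are those of noncoding hosts of 11 of the snoRNA genes. All were taken from windows that hold a pyrimidine run at or near the annotated start, so they do not stand for the hosts as a set. Each runs from 30 bases before to 30 bases from the annotated start onward, 5′ to 3′ on the transcribed strand, from RefSeq on GRCm38.p6. Capitals mark a run of at least 5 C or T bases, counted from a C lying within 5 bases of the start. C or T bases directly before that C are left in lower case, and they occur in every printed window except that of Snhg3.
Snhg12, host of Snora44, Snora16a, Snora61 and Snord99, chr4:132308648-132308707, plus strand: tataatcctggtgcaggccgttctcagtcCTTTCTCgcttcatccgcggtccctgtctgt
2410006H16Rik, host of Snord49a, Snord49b and Snord65, chr11:62602847-62602906, plus strand: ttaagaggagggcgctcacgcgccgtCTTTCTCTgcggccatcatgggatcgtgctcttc
Snhg3, host of Snora73a and Snora73b, chr4:132353657-132353716, minus strand: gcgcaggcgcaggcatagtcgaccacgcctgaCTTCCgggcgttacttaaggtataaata
Snhg9, host of Snora78, chr17:24719936-24719995, minus strand: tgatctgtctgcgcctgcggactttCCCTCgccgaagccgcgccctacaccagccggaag
Gm36220, host of Snord104, chr11:106500885-106500944, plus strand: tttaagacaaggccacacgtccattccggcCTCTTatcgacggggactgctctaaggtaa
The run covers the annotated start in Snhg12, 2410006H16Rik and Gm36220, ends just before it in Snhg9 and begins just after it in Snhg3. Such a run was found in 18 of the 48 start windows of host genes (37.5%) and in 18.3% of all 32851 windows of the table, searched on the transcribed strand only. Among windows of noncoding hosts it was found in 10 of 13. The window of Snhg1, host of Snord22, and that of start 1 of Gas5, host of Snord47, were without it. The window of start 2 of Gas5 had a run that begins at the annotated start. A match is a description of the letters and says nothing of the start used in these cells.

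Array medians over all probe sets were 3.74 to 3.80 in CL-treated SVF and 3.84 to 3.90 in vehicle-treated SVF, and over the genes tested they were 4.27 to 4.37 and 4.29 to 4.32. Pearson's r over probe sets was 0.974 to 0.976 between CL arrays, 0.959 to 0.964 between vehicle arrays and 0.951 to 0.965 between the groups. The words rose and fell are kept for genes to which limma gave an adjusted p under 0.05 over all genes, a threshold that 72 genes passed, 44 of them higher and 28 lower in CL-treated SVF. After quantile normalization of the genes tested the split was 25 higher and 32 lower. Levels are set against a background of 3.59, the 95th percentile of the mean levels of 1390 olfactory and vomeronasal receptor genes. Of the snoRNA genes, 52 lay above it (19 H/ACA and 33 C/D) and 21 lay below it.

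Most snoRNA genes of both classes had a lower mean level in CL-treated SVF. The mean was lower in CL arrays for 60 of the 73 genes and higher for 13, where 49.6% of all genes tested had a lower mean. The median log2 fold change was −0.54 over H/ACA genes and −0.53 over C/D genes, against 0.00 over all genes, and single members ranged from −1.78 to 0.51. Snora75, Snord35b, Snord89 and Snord17 fell, and no member rose. These 4 are 1 H/ACA and 3 C/D gene, and 0.126% of all genes fell by the same rule. At an unadjusted limma p under 0.05, 26 members were lower (5.38% of all genes) and 1 was higher (9.4% of all genes). Since the set was proposed with these changes known, the counts describe it and test nothing about it.

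**Figure D1:**
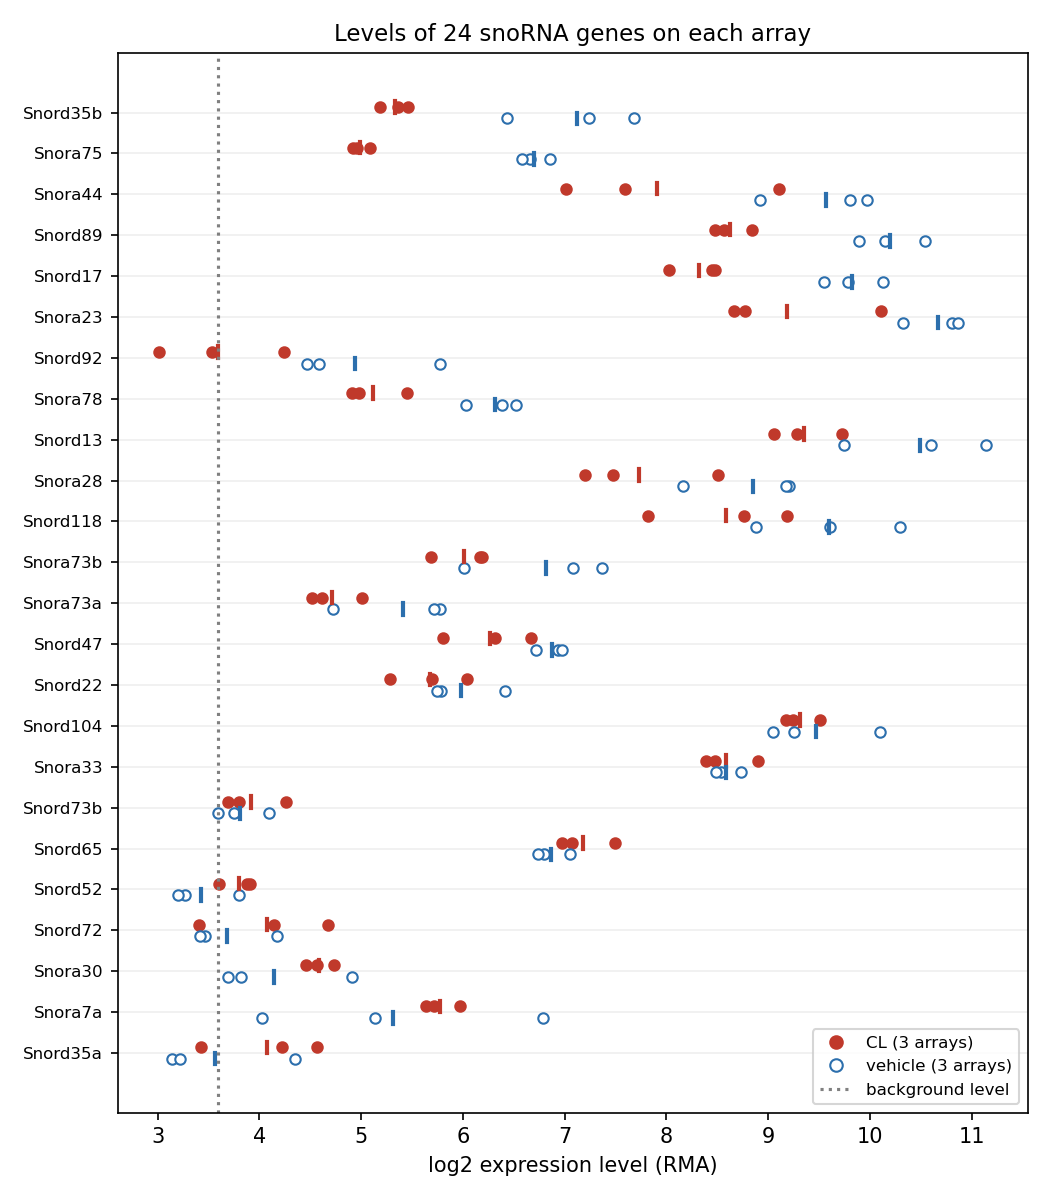
Log2 expression level (horizontal axis) of 24 snoRNA genes on each of the 3 CL arrays (filled circles) and 3 vehicle arrays (open circles), with short bars at the group means and a dotted line at the background level of 3.59. Genes are ordered by fold change, and the 3 CL arrays lie left of the 3 vehicle arrays for the genes that fell, Snord35b, Snora75, Snord89 and Snord17, while the groups overlap for those at the foot of the plot.

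Snora75, which lies in an intron of the nucleolin gene Ncl, fell with little spread in either group. Its log2 level was 4.96, 5.09 and 4.92 in CL-treated SVF and 6.66, 6.85 and 6.58 in vehicle-treated SVF. All CL arrays lay below all vehicle arrays. The log2 fold change was −1.71 ± 0.14 (SE, n = 3 each), a 3.27-fold lower level, with a limma adjusted p of 0.0203.

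Snord35b, a C/D snoRNA gene, had the lowest log2 fold change of the set. Its log2 level was 5.37, 5.19 and 5.46 in CL-treated SVF and 6.44, 7.68 and 7.24 in vehicle-treated SVF. The groups did not overlap, although the vehicle arrays were more scattered than the CL arrays. The log2 fold change was −1.78 ± 0.28 (SE, n = 3 each), or 3.44-fold lower, with a limma adjusted p of 0.0446. After quantile and cyclic loess scaling the adjusted p was 0.0527 and 0.0507, past the threshold in neither, at log2 fold changes of −1.88 and −1.89.

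Snord89 and Snord17 are 2 of the brightest C/D genes, and both fell with groups that did not overlap. Snord89, for which the reference table gave no containing gene, had log2 levels of 8.48, 8.84 and 8.57 in CL-treated SVF and 10.55, 9.89 and 10.15 in vehicle-treated SVF. The log2 fold change was −1.57 ± 0.19 (SE, n = 3 each), 2.96-fold lower, with a limma adjusted p of 0.0249. Snord17 lies within Snx5, which codes for a sorting nexin of the endosome. It had log2 levels of 8.45, 8.02 and 8.47 in CL-treated SVF and 10.13, 9.55 and 9.79 in vehicle-treated SVF, and its log2 fold change was −1.51 ± 0.20 (SE, n = 3 each), 2.84-fold lower, with a limma adjusted p of 0.0303. None of the 4 passed without any 1 of the 3 CL arrays, where no gene of the whole table did. Without vehicle replicate 1, 2 or 3, the members that passed numbered 2, 3 and 1, Snora75 among them each time.

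Snora78, an H/ACA gene within the noncoding RNA Snhg9, lay just outside the threshold. Its log2 level was 4.98, 5.45 and 4.91 in CL-treated SVF and 6.03, 6.53 and 6.38 in vehicle-treated SVF. The groups did not overlap, and the log2 fold change was −1.20 ± 0.20 (SE, n = 3 each), with a limma adjusted p of 0.0521 that ranged from 0.0348 to 0.288 over the alternatives.

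Of the other bright H/ACA genes, Snora44, Snora23 and Snora28 had lower means in CL-treated SVF with a wide spread among the CL arrays, and none passed the test. Snora44, the brightest of the 4 members within Snhg12, had log2 levels of 7.01, 7.60 and 9.11 in CL-treated SVF and 9.81, 8.92 and 9.97 in vehicle-treated SVF. CL replicate 3 lay above vehicle replicate 2, so the groups overlapped, and the log2 fold change of −1.66 ± 0.49 (SE, n = 3 each) had a limma adjusted p of 0.174. Snora23, within the nuclear import receptor gene Ipo7, had log2 levels of 8.67, 8.77 and 10.11 in CL-treated SVF and 10.81, 10.32 and 10.87 in vehicle-treated SVF. Here again CL replicate 3 was closest to the vehicle arrays, but the groups did not overlap. Its log2 fold change was −1.48 ± 0.36 (SE, n = 3 each), with a limma adjusted p of 0.119. Snora28, within the translation initiation factor gene Eif5, had log2 levels of 7.20, 7.48 and 8.51 in CL-treated SVF and 9.21, 8.16 and 9.18 in vehicle-treated SVF. CL replicate 3 again exceeded vehicle replicate 2, and the log2 fold change of −1.12 ± 0.38 (SE, n = 3 each) had a limma adjusted p of 0.217.

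Snora33, within the ribosomal protein gene Rps12, was about as bright as Snora44 and had nearly equal means in both groups. Its log2 level was 8.39, 8.90 and 8.48 in CL-treated SVF and 8.54, 8.49 and 8.73 in vehicle-treated SVF. The vehicle values lay within the range of the CL values. The log2 fold change was 0.01, with a 95% interval of −0.39 to 0.40, and its sign turned under the centring of genes, quantile and loess settings.

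The 5 members that act in ribosomal RNA processing or acetylation, apart from U3, which the naming rule leaves out, had lower means in CL-treated SVF, and none of these 5 passed the test. Snord13 (U13), which in mammals guides acetylation of the small subunit RNA, was among the 2 brightest members. It had log2 levels of 9.05, 9.28 and 9.72 in CL-treated SVF and 10.60, 9.74 and 11.14 in vehicle-treated SVF. The highest CL array lay just under the lowest vehicle array, and the log2 fold change was −1.14 ± 0.33 (SE, n = 3 each), with a limma adjusted p of 0.168. Snord118 (U8), needed for maturation of the large subunit RNAs, had log2 levels of 7.82, 8.76 and 9.19 in CL-treated SVF and 10.30, 8.88 and 9.61 in vehicle-treated SVF. Its groups overlapped, and its log2 fold change was −1.01 ± 0.41 (SE, n = 3 each), with a limma adjusted p of 0.301. The paired U17 genes Snora73b and Snora73a, which act in small subunit RNA processing, had log2 fold changes of −0.80 and −0.70. In both, vehicle replicate 2 was the lowest vehicle array and lay below the highest CL array. Snord22 (U22), which acts in the same maturation, had a log2 fold change of −0.31, with a 95% interval of −0.86 to 0.24.

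Among C/D genes of lower level, Snord92 had log2 levels of 3.54, 4.24 and 3.01 in CL-treated SVF and 4.47, 4.58 and 5.78 in vehicle-treated SVF. CL replicates 1 and 3 lie under the background level of 3.59. The log2 fold change was −1.35 ± 0.39 (SE, n = 3 each; limma adjusted p = 0.168). Snord47 was the only member placed within Gas5, a growth arrest-linked noncoding RNA with many intronic C/D snoRNAs. It had log2 levels of 5.81, 6.67 and 6.31 in CL-treated SVF and 6.94, 6.72 and 6.97 in vehicle-treated SVF, without overlap. For Snord47 the log2 fold change was −0.61 ± 0.22 (SE, n = 3 each), with a limma adjusted p of 0.240. Snord104, among the brightest C/D genes, had log2 levels of 9.18, 9.51 and 9.25 in CL-treated SVF and 10.10, 9.05 and 9.26 in vehicle-treated SVF. Its log2 fold change of −0.16 came from vehicle replicate 1, and without that array it was 0.16.

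Of the 13 members with a higher mean in CL-treated SVF, 8 lay above background and none of those had groups that did not overlap. The largest difference was at Snord35a, the only single-symbol snoRNA gene of the Rpl13a locus, a locus whose C/D snoRNAs are known from work on lipotoxic stress. It had log2 levels of 4.22, 4.57 and 3.43 in CL-treated SVF and 4.35, 3.14 and 3.22 in vehicle-treated SVF. Its log2 fold change was 0.51, with a 95% interval of −0.33 to 1.34. Snora7a had a log2 fold change of 0.46 and a vehicle spread of 4.03 to 6.79, and it turned to −0.18 without vehicle replicate 3. Snora30, Snord72, Snord52 and Snord65 had log2 fold changes of 0.45, 0.39, 0.38 and 0.31, and Snord73b had 0.11. The limma adjusted p was 0.409 or more for each of these 5. Snord72, Snord52 and Snord73b also had single arrays under the background level. Snord15a and Snord90 had CL arrays above all vehicle arrays (11.2% of all genes did), and both had a mean below background.

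The difference was larger at higher levels. In the 31 snoRNA genes from the background to a level of 6, the median log2 fold change was −0.57 and 25 were lower. In the 11 from 6 to 8 it was −0.61 with 10 lower, and in the 10 over 8 it was −1.13 with 9 lower. All genes of the same levels had medians of 0.04, 0.11 and 0.09. The 21 members below background had a median of −0.20, with 16 lower. A log2 fold change under −1 was seen in 14 snoRNA genes, all above background, and in 0.473% of all genes. Over members, Spearman's rho of fold change and level was −0.46 (n = 73 genes, which share the same 6 arrays), and over all genes it was 0.24. Annotated snoRNA length had a rho of −0.34 with the fold change over the 52 members above background.

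**Figure D2:**
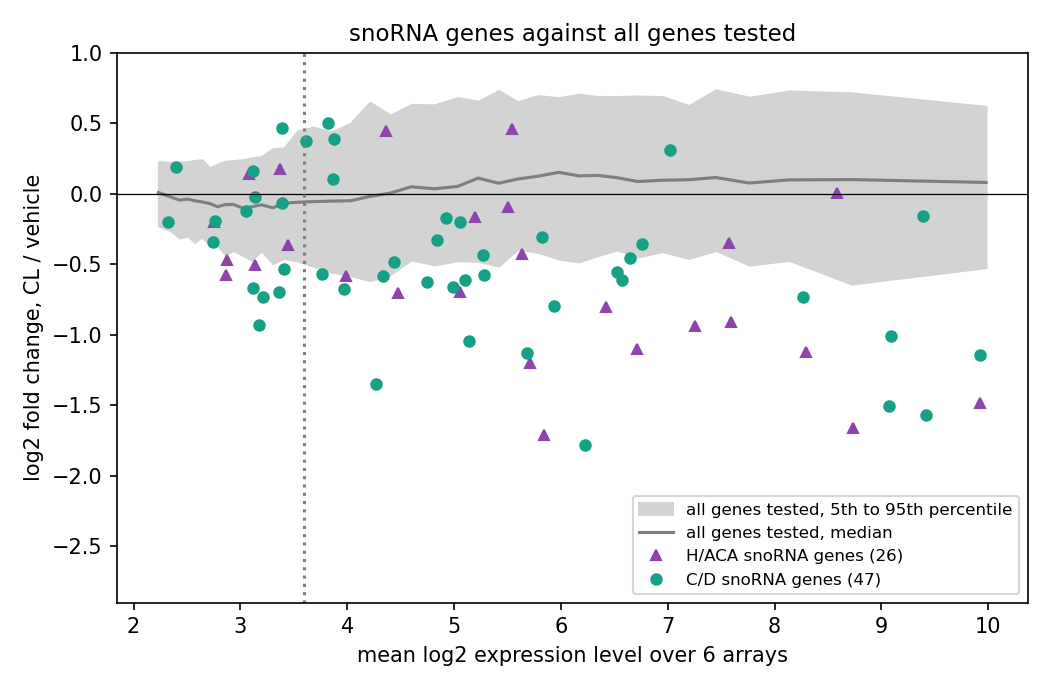
Log2 fold change of CL over vehicle (vertical axis) against the mean log2 level over all arrays (horizontal axis) for 26 H/ACA genes (triangles) and 47 C/D genes (circles), with the median of all genes at each level as a line and their 5th to 95th percentile as a grey band. Most snoRNA genes right of the dotted background line lie below the grey band or in its lower part, and Snora33 and Snord104 lie near 0 at levels of 8.59 and 9.39.

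Single arrays carried the difference unevenly. Over the 52 members above background, the median level was 5.18, 5.27 and 5.34 on CL arrays and 6.43, 5.90 and 6.04 on vehicle arrays. Over all 73 members it was 4.46, 4.86 and 4.91 on CL arrays and 5.26, 4.91 and 5.53 on vehicle arrays. The group medians lay apart for the members above background, but over all members the highest CL and the lowest vehicle median were nearly equal. Over the C/D genes taken alone the medians overlapped, at 4.26, 4.67 and 4.32 on CL arrays and 4.57, 4.58 and 5.23 on vehicle arrays, while over the H/ACA genes they did not, at 5.04, 5.22 and 5.10 and at 5.85, 5.47 and 5.79. Vehicle replicate 2 was the lowest vehicle array for 36 of the 73 members, and CL replicate 3 was the highest CL array for 32. In 20 members all CL arrays lay below all vehicle arrays (8.72% of all genes). Without vehicle replicate 2 this count was 36 (14.6% of all genes). Leaving an array out can only keep or raise such a count, so the direction of that change was fixed beforehand. With each array centred on the median of all probe sets the count was 11 (3.79% of all genes). The median pooled SD within groups was 0.43 for snoRNA genes and 0.21 for all genes, and it was 0.46 and 0.22 above background.

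The host genes had no such shift as a set. By position, 70 members lay within 56 host genes, and 43 of these hosts had a probe set of their own with 1 symbol. Of the measured hosts, 20 had a lower and 23 a higher mean in CL-treated SVF, with a median log2 fold change of 0.01 and a range of −0.39 to 0.91. No host passed the test in limma. There were 0 lower (5.38% of all genes) and 4 higher (9.4% of all genes) at an unadjusted limma p under 0.05. For the 40 members above background with a measured host, 35 had a lower fold change than the host. Their median was −0.58, and the median of snoRNA minus host was −0.69. Across these 40 pairs, which share arrays and in part hosts, Spearman's rho of the snoRNA and host fold changes was 0.10.

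**Figure D3:**
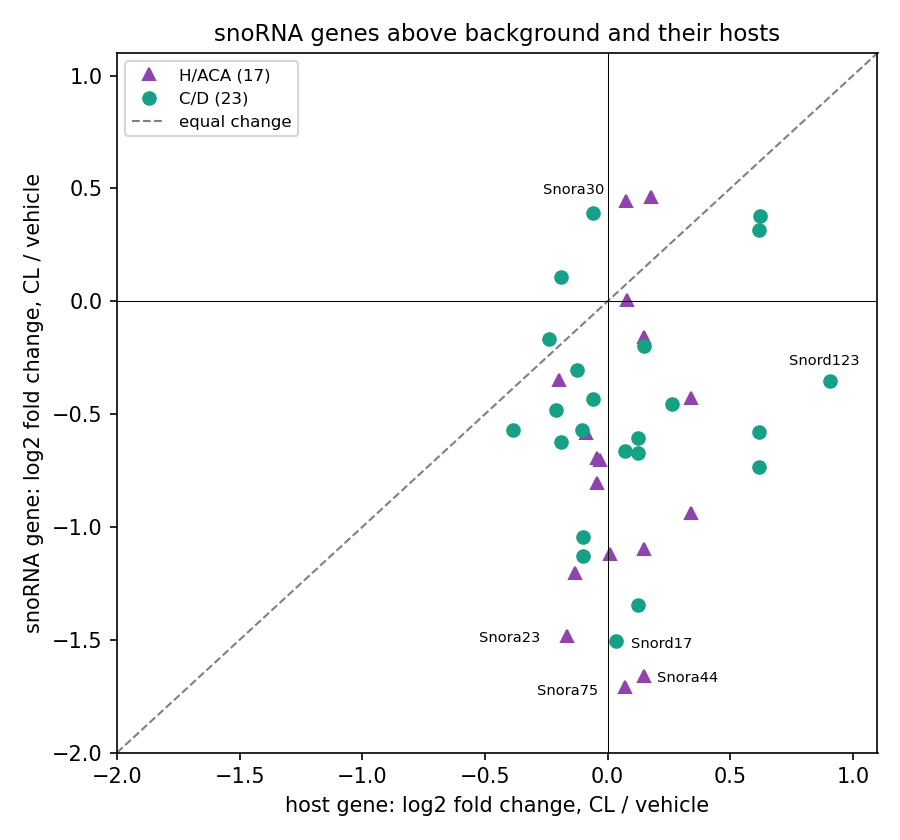
Log2 fold change of CL over vehicle for the 40 snoRNA genes above background with a measured host (vertical axis) against that of the host gene (horizontal axis), with H/ACA genes as triangles and C/D genes as circles. The dashed line marks an equal change, and 35 of the 40 points lie below it.

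For the genes that fell, the measured hosts were Ncl and Snx5. Ncl, which codes for the abundant nucleolar protein nucleolin, averaged 9.47 ± 0.11 in CL-treated SVF and 9.40 ± 0.20 in vehicle-treated SVF on the log2 scale (SD, n = 3 each), and Snx5 averaged 8.79 ± 0.13 and 8.76 ± 0.05. Ncl had a log2 fold change of 0.07, with a 95% interval of −0.28 to 0.42, and Snx5 one of 0.03, with an interval of −0.28 to 0.35. Both intervals lie well above the changes of Snora75 and Snord17. Ipo7, Snhg9 and Eif5, the hosts of Snora23, Snora78 and Snora28, had log2 fold changes of −0.17, −0.13 and 0.01.

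In 11 hosts more than 1 snoRNA gene was measured, and members of the same host could have unlike point values of the fold change. Snhg12 had a log2 fold change of 0.15, and its members Snora44, Snora16a, Snord99 and Snora61 had −1.66, −1.10, −0.20 and −0.16. 2410006H16Rik, a noncoding host, had 0.62 ± 0.23 (SE, n = 3 each; limma adjusted p = 0.258), with CL arrays above all vehicle arrays. Within it, Snord49b and Snord49a had −0.73 and −0.58, and Snord65 had 0.31. In Ncl, Snora75 stood at −1.71 and the C/D gene Snord82 at −0.66, and in Wdr43, a host at 0.12 that codes for a factor of the small subunit processome, Snord92 stood at −1.35 and Snord53 at −0.61. The ribosomal protein gene Rpl3 had −0.10, with a 95% interval of −0.84 to 0.63 and an SD of 0.75 among vehicle arrays. Its members Snord83b and Snord43 had −1.13 and −1.05, with intervals of −1.59 to −0.67 and −1.77 to −0.32. Both intervals overlap that of Rpl3, so the values do not separate this host from its members. Snhg18 had the highest host value, 0.91 ± 0.26 (SE, n = 3 each; limma adjusted p = 0.165), and its member Snord123 had −0.35. These differences between members of 1 host were not tested. The 95% intervals of the members named here overlapped within 2410006H16Rik, Ncl, Wdr43 and Rpl3. In Snhg12, those of Snora44 (−2.78 to −0.54) and Snora61 (−0.46 to 0.14) did not overlap. That of Snora16a was wide, from −2.97 to 0.77.

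Genes that the symbol rule leaves out, but that are also small noncoding RNAs, showed the same direction. The array measured 8 further genes of the snoRNA biotype, and all 8 had a lower mean in CL-treated SVF, with a median log2 fold change of −0.62. Of these, 5 lie within Rian, an imprinted noncoding RNA whose introns carry clustered C/D snoRNAs. Rian itself had a log2 fold change of −0.27, with a 95% interval of −0.77 to 0.22. Among 14 other small RNA genes, 13 had a lower mean, with a median of −0.73. Of these 14, 10 had CL arrays below all vehicle arrays (8.72% of all genes did). Rnu3a, a gene of the U3 snoRNA that is required for cleavage of the ribosomal RNA precursor, fell. Its log2 level was 11.22, 10.78 and 11.11 in CL-treated SVF and 12.41, 12.51 and 12.54 in vehicle-treated SVF. The groups lay far apart, and the log2 fold change was −1.45 ± 0.16 (SE, n = 3 each), with a limma adjusted p of 0.0203. This gene has its own promoter and lies outside the Snord naming.

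The Cajal body RNAs Scarna10, Scarna6, Scarna2 and Scarna17, which guide the same modifications on spliceosomal RNAs, had log2 fold changes of −1.44, −1.24, −0.98 and −0.64 without overlap between groups, and Scarna8, which was below background, had 0.05. None of the 5 passed the test in limma, and 4 were lower at an unadjusted limma p under 0.05 (5.38% of all genes). In 8.72% of all genes the CL arrays lay below all vehicle arrays. Rpph1, the RNA of RNase P, had −0.91, Terc, the telomerase RNA of the H/ACA fold, −0.72, the minor spliceosome RNAs Rnu11 and Rnu12 −0.73 and −0.72, and Rn7sk −0.49. The values of Rpph1, Terc, Rnu11, Rnu12 and Rn7sk, which are not made from introns, lay in the range of the snoRNA genes. Whether an origin in introns bears on any of these values was not tested. MicroRNA genes above background had a smaller shift, with a median of −0.33 over 130 genes and 103 lower. Ribosomal protein genes had a median of 0.08 over 73 genes, with 0 called in limma. By an unadjusted limma p under 0.05, 1 was lower (5.38% of all genes) and 11 were higher (9.4% of all genes).

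Genes for the proteins of the snoRNPs had small differences in both directions. Of the C/D core, Nop56, Nop58 and Snu13 had log2 fold changes of −0.09, −0.39 and 0.23, and fibrillarin is not analysed here. Of the H/ACA core, Dkc1, Nhp2, Nop10 and Gar1 had −0.08, 0.58, 0.14 and 0.00. None of these 7 genes passed the test, and none had an unadjusted limma p under 0.05. Of 15 assembly and transport factors, 13 had a higher mean and 0 were called, with a median of 0.20. Pih1d1 (0.50) and Ruvbl2 (0.56) are parts of the chaperone complex that loads box C/D proteins. Both had CL arrays above all vehicle arrays, as did 11.2% of all genes, and limma adjusted p of 0.156 and 0.193. Of 22 factors of the U3 processome and related steps, 0 were called and the median was 0.02. Imp3 at 0.60 and Nop2 at 0.49 were higher at an unadjusted limma p under 0.05, as were 9.4% of all genes. Of 14 factors of lariat debranching and 3′ trimming, 0 were called and the median was 0.10, with the deadenylase Parn, which trims H/ACA RNAs, at 0.49 (adjusted p = 0.195 in limma).

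RNA polymerase I genes had a median log2 fold change of 0.15, and 12 of 13 had a higher mean. Of all genes above background, 40.8% had a lower mean. Polr1c (0.53) and Taf1b (0.33) had CL arrays above all vehicle arrays, as did 11.2% of all genes. Their limma adjusted p was 0.134 and 0.314. The exception to the higher means was Taf1d, a subunit of the polymerase I selectivity factor, which fell. It had log2 levels of 7.59, 7.55 and 7.79 in CL-treated SVF and 8.62, 9.04 and 8.94 in vehicle-treated SVF, a log2 fold change of −1.22 ± 0.16 (SE, n = 3 each; limma adjusted p = 0.0303). The reference table places 6 snoRNA genes inside Taf1d. Among 16 noncoding snoRNA host genes the median was −0.06, and Snhg17 fell, with log2 levels of 5.63, 5.98 and 5.49 in CL-treated SVF and 6.80, 7.11 and 7.23 in vehicle-treated SVF. Its log2 fold change was −1.35 ± 0.18 (SE, n = 3 each; limma adjusted p = 0.0311). Snhg11 had −1.01 ± 0.23 (SE, n = 3 each; limma adjusted p = 0.107), again without overlap. Snhg17 and Snhg11 each contain 2 snoRNA genes in the reference table. Whether the probes of these 3 genes lie on exons or on the snoRNAs was not tested.

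**Figure D4:**
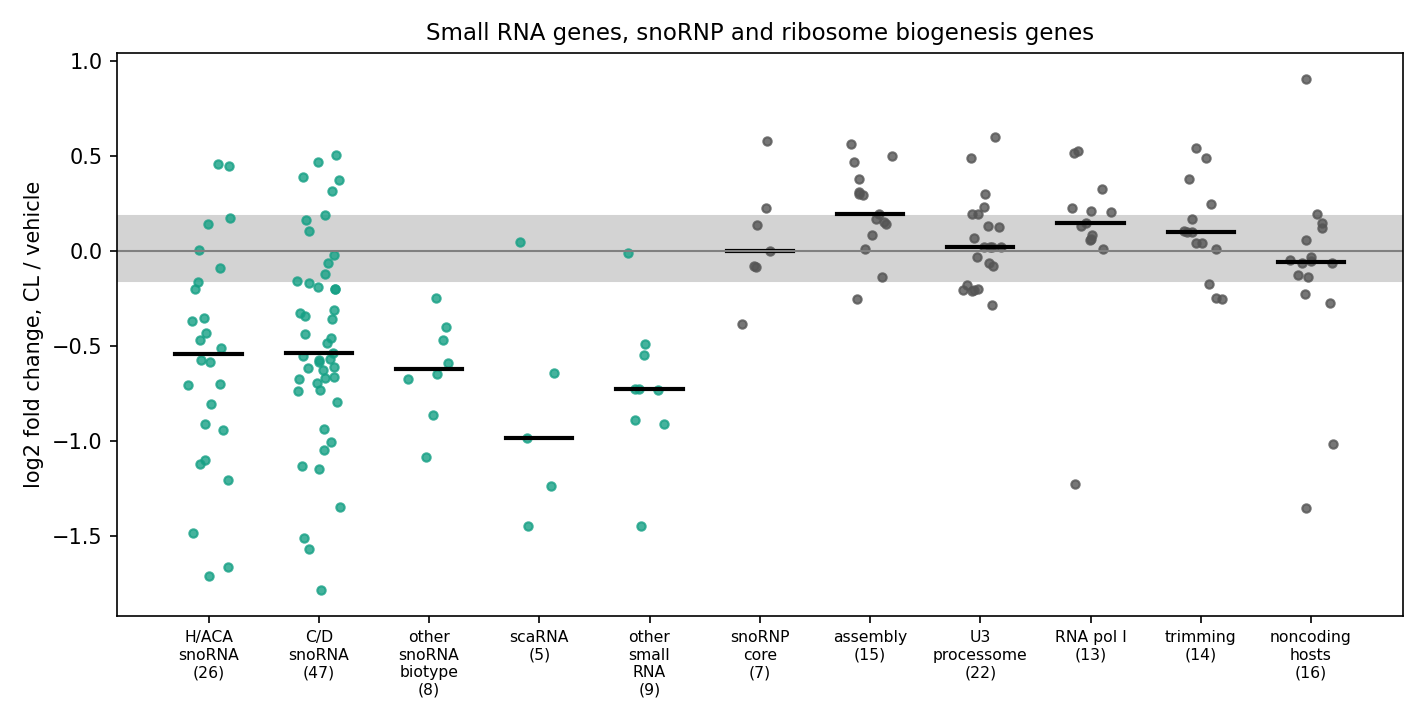
Log2 fold change of CL over vehicle (vertical axis) for each gene of 11 sets, with black bars at the set medians and a grey band for the middle 50% of all genes tested. The 5 small RNA sets on the left have medians from −0.98 to −0.53, while the 6 sets of protein genes and noncoding hosts on the right have medians from −0.06 to 0.20, with Taf1d, Snhg17 and Snhg11 far below the rest of their sets.

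Other features of the SVF differed between the same arrays. The mean level of 5 pericyte and smooth muscle markers was 7.91 to 8.57 in CL-treated SVF and 7.43 to 7.49 in vehicle-treated SVF. That of 4 mast cell markers was 5.92 to 6.97 and 4.40 to 5.04. In each of these lists 2 genes were called higher, as were 0.198% of all genes. The mean of 3 T cell markers was 6.33 to 6.64 in CL-treated SVF and 6.64 to 7.06 in vehicle-treated SVF, groups that only just did not overlap, and that of 3 neutrophil markers was 6.56 to 7.04 and 7.37 to 7.66, with 0 called. The mean of 5 endothelial markers was 8.16 to 8.99 in CL-treated SVF and 8.89 to 9.55 in vehicle-treated SVF, with a median log2 fold change of −0.53 over the list and overlap between the groups. Progenitor, macrophage, B cell, mesothelial, adipocyte and epithelial markers overlapped between the groups as well. All measured markers of each list lay above background, except 1 mast cell and 1 adipocyte gene. The part of these cell types in the snoRNA values was not tested.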

How the data were processed

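RNA of gWAT SVF was profiled on 6 Mouse Gene ST arrays of Affymetrix, 3 CL and 3 vehicle, grouped by treatment in the labels. The authors made the deposited log2 values with RMA in Affymetrix Expression Console (versions not given in the sources used here), which corrects background, quantile-normalizes arrays and summarises probe sets, so values are relative to the whole array. All value columns were used unscaled. Of 41345 probe sets, 23521 carry 1 symbol, 1820 several and 16004 none. Only those with 1 symbol were tested, the brightest per gene, giving 22180 genes.

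The comparison used limma 3.58.1 under R 4.3.3 (two-sided, by lmFit and eBayes without trend) and Benjamini-Hochberg adjustment over all genes, at a threshold of 0.05. The code was tested on simulated data. Tables were made in Python 3.11.15 with pandas 2.3.3 and scipy 1.17.1. All 73 members matched the RefSeq gene table (GRCm38.p6) by gene number. A host is the shortest coding or noncoding long RNA gene containing the snoRNA gene. The table used gives no strand, so containment ignored strand, and the probes' strand was not checked. For 3 genes (Snord89, Snord13 and Snord118) no host was found.

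Named genes were, per class, the 5 largest increases and decreases above background, the 4 brightest, processing snoRNAs, those of Rpl13a and Gas5, and their hosts. Others named (Snora16a, Snord15a, Snord90, the remaining members of shared hosts, and genes outside the set) were chosen after their values were seen. Members and lists were chosen with earlier results of these data known. Alternatives were other centring, quantile and loess scaling, level filters, other use of several probe sets, array weights, a replicate block, other eBayes settings, the methods' Student's test and leaving out each array. The number of arrays limits precision, and neither the labels nor the methods name a batch.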

Additional observations from a re-analysis of the deposited data

How the results depend on the processing

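The count of snoRNA genes with a lower mean in CL-treated SVF was 57 to 61 of 73 under the alternatives that kept all genes, and 44 of 52 and 40 of 44 with only genes over the background or over the median level. The H/ACA median log2 fold change was −0.62 to −0.41 and the C/D median −0.48 to −0.38 when 1 array was left out, and −0.43 and −0.42 after centring on all probe sets, which moved the median of all genes to 0.11. With the same 2 filters on level, the H/ACA median was −0.70 and −0.75, since fewer genes entered. The members that passed the test were less stable. Instead of 4, there were 2 with the replicate number as a block (Snora75 and Snord17), 0 by the methods' Student's test after Benjamini-Hochberg and 14 before it (13 lower and 1 higher), and 0 to 3 when 1 array was left out. Same-numbered arrays deviated together at r of −0.005, 0.10 and 0.06, so the numbers were not taken as pairs. Snora78 passed under 9 alternatives, 1 of them the methods' Student's test before adjustment. Over all genes, 72 calls became 211 (179 higher) with centring on all probe sets, 161 above the median level, 15 with the block, 153 with trend, 177 with trend and robust, 0 and 2608 by the Student's test after and before adjustment, and 0 to 31 with 1 array left out. Members whose groups did not overlap, 20 here, numbered 11 with that centring (3.79% of all genes). They numbered 23 to 36 with 1 array left out (up to 14.6% of all genes), which can only keep or raise the count. This choice was added after seeing the data. With 1 array left out, 15 of the 73 members turned sign, 10 of them above background, and 58 did not. The farthest from 0 were Snora69 and Snord61, which had 0.73 and 0.43 without vehicle replicate 2 in place of −0.58 and −0.57. Among the named members, 4 turned sign under any alternative. Snora33 was −0.011 after centring on the genes tested, −0.10 and −0.11 after quantile and loess scaling, and −0.15, −0.02 and −0.04 without CL replicate 2, vehicle replicate 1 and vehicle replicate 2. Snord73b was −0.064 and −0.002 without CL replicate 1 and vehicle replicate 3, Snord104 was 0.16 without vehicle replicate 1, and Snora7a was −0.18 without vehicle replicate 3. With 1 array left out the range was −0.15 to 0.11 for Snora33, −0.064 to 0.25 for Snord73b, −0.36 to 0.16 for Snord104 and −0.18 to 1.20 for Snora7a. The cause was not tested.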
